A study of Mus musculus with 12 samples.

Results

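The mitochondrial protein import genes described here are 24 protein-coding mouse genes whose symbol begins with Timm or Tomm, out of 15651 genes in the expression table. They were found by looking up the symbol of each Ensembl identifier, without use of any expression value, and 15252 identifiers had a symbol. Of the 27 symbols with these letters in the reference, Tomm20, Timm8a2 and the antisense transcript Tomm6os were not analysed here. By the known role of their products the members fall into 8 genes of the outer membrane TOM complex, 6 genes of the inner membrane TIM23 complex, 3 genes of the TIM22 carrier translocase, 5 small TIM chaperones of the intermembrane space, and 2 further genes, Timmdc1 and Tomm34.

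Nearly all mitochondrial proteins are encoded in the nucleus, made in the cytosol and carried across or into the mitochondrial membranes by these machines. Precursors enter through the TOM pore and then part ways: those with a presequence pass through TIM23 toward the matrix, while metabolite carriers are held by small TIM chaperones and handed to TIM22 for insertion in the inner membrane. Small TIM proteins are themselves imported and folded by an oxidative relay built on Chchd4, also called Mia40. Blood cells, leukemic ones included, depend on this traffic to build respiratory complexes and to supply the matrix with enzymes and chaperones.

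RNA-seq was performed on leukemic spleen cells of moribund mice, enriched for the receptor c-Kit with CD117 beads. D/F mice had the genotype Dnmt3afl/fl, Flt3ITD/ITD, Mx1Cre and T/F mice the genotype Tet2fl/fl, Flt3ITD/ITD, Mx1Cre, with 3 mice of each. Cells of each mouse were divided between DMSO, the solvent control, and CCS1477 (inobrodib), which binds the bromodomains of the acetyltransferases p300 and CBP, at 4 μM for D/F and 2 μM for T/F. After 6 hours in medium with SCF, IL6 and IL3 this gave 12 libraries in 4 groups of 3, and the comparison asks how the cells' transcripts respond to the inhibitor. All groups carry the same homozygous Flt3 internal tandem duplication and Mx1-Cre, a Cre that responds to interferon and is not restricted to leukemic cells. The study did not treat the mice with pIpC and describes a spontaneous loss of a single allele or both alleles of Dnmt3a or Tet2. The age of the sampled mice was not given in the sources used here, and there is no group of healthy cells. The study reports shorter survival of T/F than of D/F mice, so age when moribund may also have differed between the genotypes. Dose and genotype changed together, so they cannot be told apart in any difference between D/F and T/F.

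Values are given as TPM, an abundance corrected for transcript length, so levels of different genes may be compared. The libraries summed to between 914204 and 931697 TPM. TPM keeps no read number, so the depth behind each value is unknown and the spread between 3 mice is the only measure of error. Under DMSO the level of Dnmt3a did not set D/F apart (29.3 to 55.7 TPM, against 39.9 to 53.9 TPM for T/F), and Tet2 was at 38.3 to 43.4 TPM in D/F cells and at 30.0 to 35.8 TPM in T/F cells. Gene-level TPM does not show the loss of single exons, nor how many cells kept an allele. Kit was found in all libraries, at 22.8 to 149 TPM, and Ptprc, which encodes the leukocyte antigen CD45, at only 0.826 to 3.11 TPM. D/F replicate 2 stood apart: under DMSO its 8 mature neutrophil markers summed to 2830 TPM against 10017 and 6730 TPM in the other D/F mice. Its 8 blast and progenitor markers also had the lowest sum, 3626 TPM against 10021 and 7753 TPM, but that list was split. Cd34, a progenitor surface marker, was at 447 TPM against 110 and 138 TPM, and Kit, Flt3 and Ptprc were likewise highest in this mouse. Mpo was at 1163 TPM against 3673 and 2646 TPM, and Elane, Prtn3 and Ctsg were likewise lowest.

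Under DMSO the import genes spanned a wide range of levels. Over the 6 DMSO libraries the highest was Tomm6, a small TOM subunit, at 184 to 319 TPM with a median of 243 TPM. Timm23, the channel of the presequence translocase, followed at 157 to 229 TPM with a median of 198 TPM, and its range overlapped that of Tomm6. Then came Tomm22 (median 163 TPM), the central TOM receptor, Tomm5 (157 TPM), a small subunit of the pore complex, Tomm40 (148 TPM), the pore itself, and Tomm70a (106 TPM), the receptor for carrier precursors. Timm22, the channel of the carrier translocase, was far lower, at 13.6 to 15.5 TPM with a median of 14.7 TPM. Tomm20l, a paralogue of the presequence receptor Tomm20, was the lowest at 0 to 2.70 TPM. Among the small TIM genes Timm8b was highest with a median of 96.4 TPM, Timm9 stood at 60.0 TPM, and Timm13, Timm10 and Timm8a1 lay between 36.1 and 46.9 TPM.

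In T/F cells CCS1477 lowered 58.3% of these genes, and in both genotypes the chaperones Timm9 and Timm10 dropped to between 26.2% and 32.2% of their DMSO means. In T/F cells 14 of 24 members passed the test as lower (limma, Benjamini-Hochberg adjusted p under 0.05, any fold change), against a background of 17.6% of all genes tested. None of the 24 passed as higher, against a background of 25.8%. In D/F cells 3 of 24 were called lower, Timm10, Timm9 and Tomm70a, where the background was 6.51%, and 0 of 24 were called higher, where it was 5.14%. At an unadjusted limma p under 0.05, 0 of 24 were higher in either genotype, but the share of all genes at that limit is not given here. The D/F count rests on few mice: it was 0 without replicate 1 or without replicate 3, when no gene of the table was called. Without replicate 2 it was 8, and 3739 of 15191 genes were called in either direction, against 1805 of 15501 with all mice. The T/F count was 8 without replicate 2, 10 without replicate 1 and 11 without replicate 3. Genes called there in either direction were 3192 of 15253, 3473 of 15254 and 5122 of 15189, against 6620 of 15256 with all mice. A shared fit of all 4 groups gave 10 members in T/F, beside 3713 of 15256 genes.

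The DMSO and CCS1477 cells of a replicate came from the same mouse. With the mouse as a block, 12 of 24 members were called lower in D/F (background 18%) and 0 higher (background 21.4%), and the same 14 members were called lower in T/F (background 22.9%) and 0 higher (background 31.2%). Falls of more than 2-fold that passed the unpaired test were found for 2 members in D/F (background 4.61%), Timm9 and Timm10, and for 6 in T/F (background 4.70%), which were Timm9, Timm10, Timm8a1, Tomm5, Tomm40 and Tomm20l. The D/F number was 5 with the block, where the share of all genes is not given here. It was 0 without replicate 1 or without replicate 3, when no gene of the table was called. All 3 CCS1477 libraries lay below all 3 DMSO libraries for 11 members in D/F (background 16.7%) and for 14 in T/F (background 22.6%). In both genotypes this held for 10 of 24, where the background was 13.4%: Timm9, Timm10, Timm8a1, Tomm5, Tomm40, Tomm70a, Timm23, Timm29, Timm21 and Timm44.

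Over the members the median log2 fold change came to -0.44 for D/F and -0.38 for T/F, beside 0.057 and 0.075 over all genes tested. Log2 fold changes are on the scale of log2(TPM + 1), which understates the change of low genes. Below 0 were 21 members in D/F (background 45.2%) and 16 in T/F (background 42.8%), and 13 members were lower with CCS1477 in 6 of 6 mice (background 24.5%). Across the 24 members the changes in both genotypes, which share no library, followed each other with a Pearson r of 0.928. Genes are not independent replicates, so this r is given as a description.

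**Figure D1:**
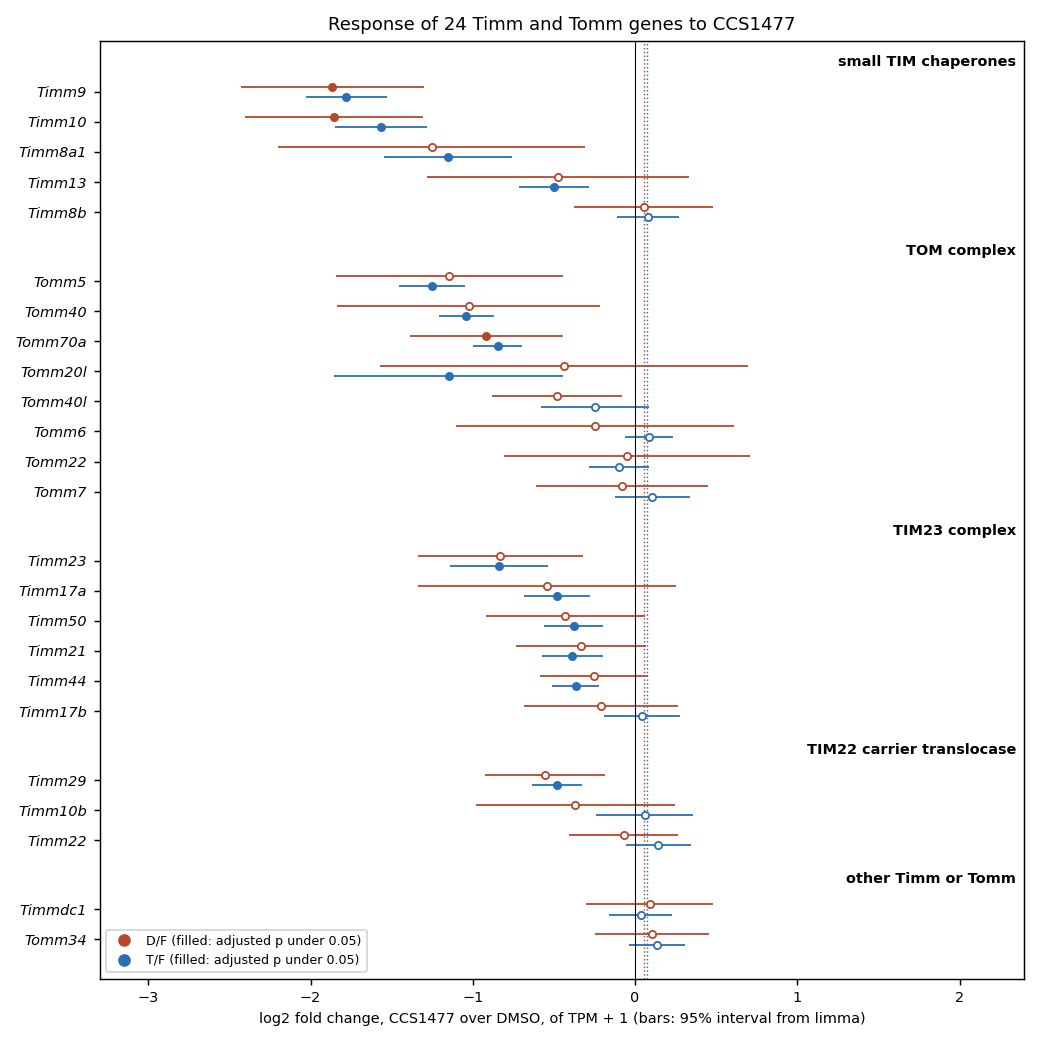
Log2 fold change of TPM + 1 with CCS1477 over DMSO for all 24 members, grouped by complex, in D/F (red) and T/F (blue), with 95% intervals from limma, filled points at an adjusted p under 0.05 and dotted lines at the median of all genes tested. Timm9 (-1.86 and -1.78) and Timm10 (-1.85 and -1.56) sit farthest to the left, no filled point lies to the right of 0, and the D/F intervals are wider than the T/F intervals. These intervals and calls are from the unpaired fit. With the mouse as a block the half-width of the D/F interval went from 0.56 to 0.25 for Timm9 and from 0.81 to 0.27 for Tomm40.

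On the log2(TPM + 1) scale the small TIM chaperones Timm9 and Timm10 had the largest changes of the 24 members in both genotypes. Timm9 and Timm10 form a ring of alternating subunits that escorts hydrophobic carriers across the intermembrane space. Timm9 was at 46.0, 57.4 and 67.5 TPM in D/F DMSO replicates 1 to 3 and at 11.8, 14.1 and 19.2 TPM with CCS1477, and in T/F at 62.5, 53.6 and 63.9 TPM with DMSO and 16.7, 15.3 and 18.3 TPM with CCS1477. Every treated library lay far below every control library, and the treated ranges of the genotypes overlapped. Timm9 fell by 1.86 ± 0.23 (SE, n = 3) on the log2 scale in D/F (limma adjusted p = 0.0093) and fell by 1.78 ± 0.10 in T/F (adjusted p = 0.0003).

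Timm10 moved in parallel. Its D/F values were 34.4, 43.4 and 48.4 TPM with DMSO and 10.2, 8.68 and 14.2 TPM with CCS1477, and its T/F values were 44.3, 38.9 and 50.1 TPM and 13.3, 14.0 and 15.7 TPM. Again no treated library reached a control library. Timm10 fell by 1.85 ± 0.23 on the log2 scale in D/F (limma adjusted p = 0.0088) and fell by 1.56 ± 0.11 in T/F (adjusted p = 0.0005). The ratio of Timm9 to Timm10 within a library was 1.35 ± 0.039 (SD, n = 3) with DMSO and 1.38 ± 0.23 with CCS1477 in D/F (exact permutation p = 0.8), a difference smaller than the SD of the treated mice. In T/F the ratio was 1.35 ± 0.071 with DMSO and 1.17 ± 0.081 with CCS1477, and it was lower in 3 of 3 mice (exact permutation p = 0.1, the smallest that 3 against 3 libraries allow).

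Timm8a1 and Timm13 form the other hexamer of the intermembrane space, which serves a narrower set of inner membrane proteins. Timm8a1 was at 31.7, 28.6 and 46.4 TPM in D/F DMSO and 18.2, 7.35 and 20.1 TPM in D/F CCS1477, and at 44.7, 33.9 and 38.4 TPM and 13.8, 17.6 and 19.8 TPM in T/F. The groups did not overlap, and D/F replicate 2 was the lowest treated library. In T/F Timm8a1 fell by 1.15 ± 0.16 on the log2 scale (limma adjusted p = 0.0029), whereas in D/F the change of -1.25 ± 0.39 had an adjusted p of 0.088 that became 0.020 with the mouse as a block.

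Timm13, its partner, changed less. It was at 36.6, 27.1 and 54.4 TPM in D/F DMSO and 30.0, 18.3 and 35.4 TPM in D/F CCS1477, where the groups overlapped, and at 55.5, 47.5 and 46.2 TPM and 34.5, 36.2 and 33.8 TPM in T/F, where they did not. The fitted log2 change was -0.48 ± 0.34 in D/F (limma adjusted p = 0.387, and 0.032 with the mouse as a block) and -0.50 ± 0.088 in T/F (adjusted p = 0.0066). The T/F call was lost without replicate 2 (adjusted p = 0.056) and in the shared fit of 4 groups (adjusted p = 0.201). The ratio of Timm8a1 to Timm13 went from 0.925 ± 0.11 to 0.526 ± 0.11 in D/F and from 0.783 ± 0.061 to 0.490 ± 0.093 in T/F, lower in 6 of 6 mice (exact permutation p = 0.1 in each genotype).

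Timm8b, a paralogue of Timm8a1, was the exception in the group. Its values were 105, 78.3 and 105 TPM in D/F DMSO, 105, 89.2 and 103 TPM in D/F CCS1477, 97.8, 95.1 and 93.0 TPM in T/F DMSO and 101, 109 and 92.8 TPM in T/F CCS1477. Treated and control libraries overlapped in both genotypes, with log2 fold changes of 0.054 ± 0.18 (limma adjusted p = 0.874) and 0.080 ± 0.078 (adjusted p = 0.444). The ratio of Timm8a1 to Timm8b went from 0.370 ± 0.071 to 0.150 ± 0.060 in D/F and from 0.409 ± 0.050 to 0.170 ± 0.039 in T/F, with no overlap of treated and control libraries (exact permutation p = 0.1 in each). Reads of Timm8a1 and of its close copy Timm8a2, which was not analysed here, may be shared by the quantification.

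**Figure D2:**
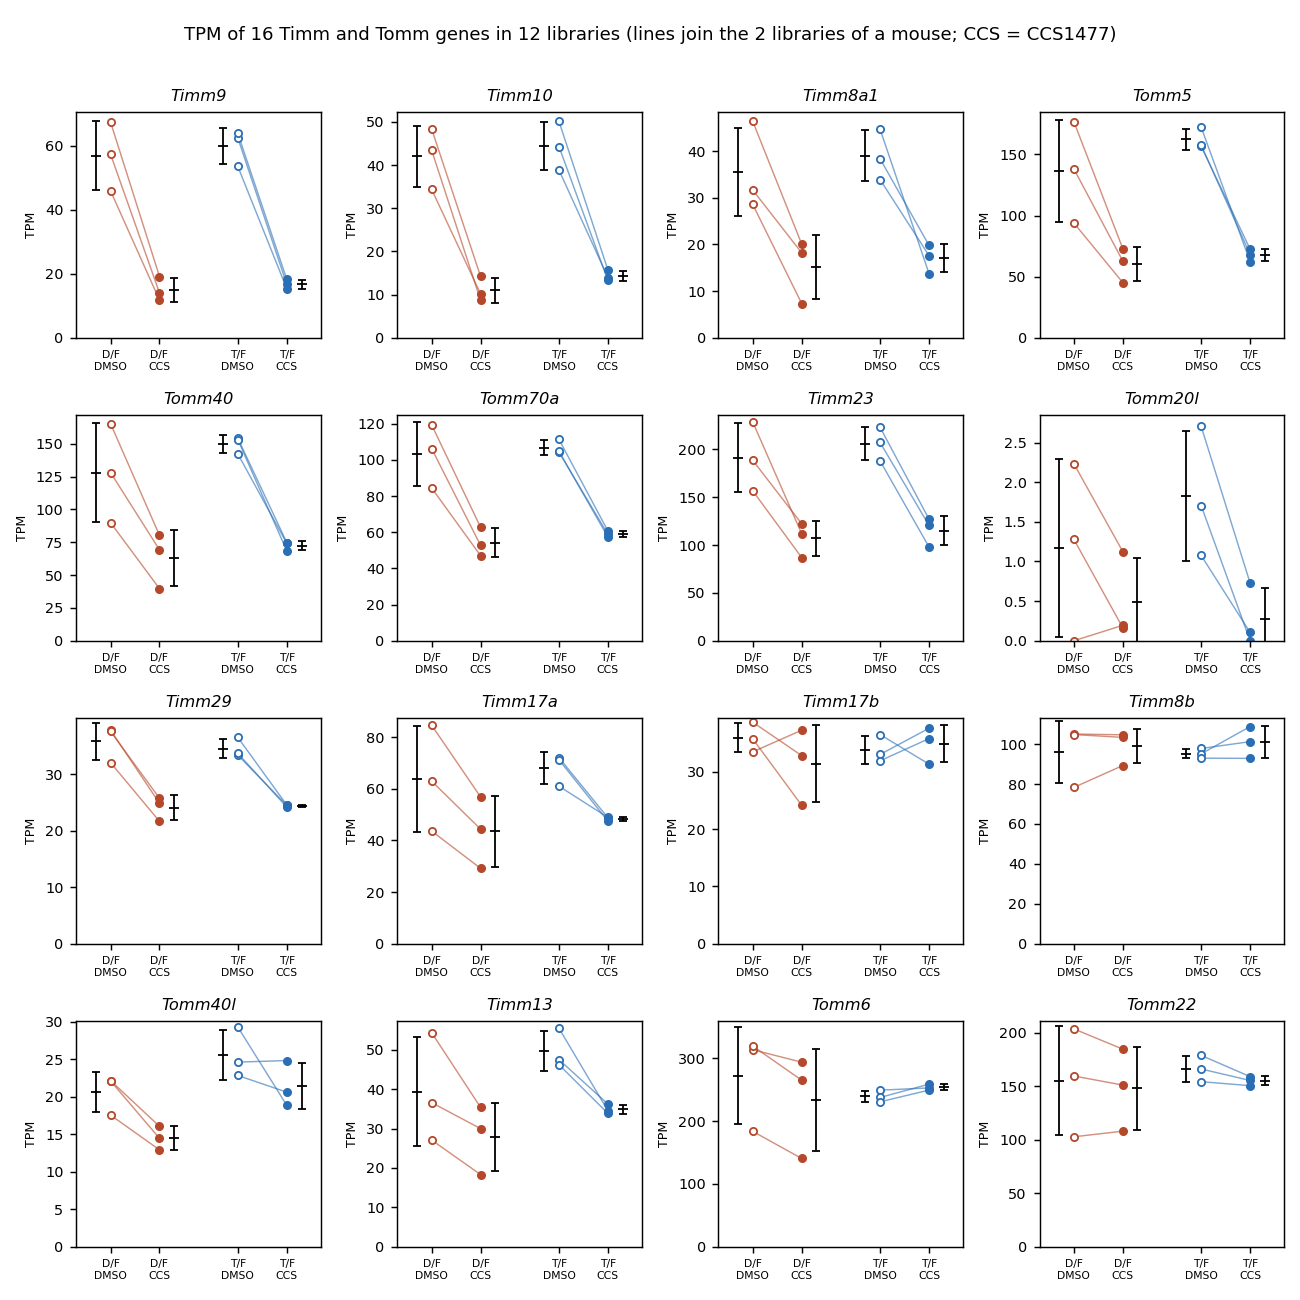
TPM of 16 members in each library, with DMSO as open and CCS1477 as filled circles, D/F in red and T/F in blue, lines joining the libraries of a mouse, and black marks giving the mean and SD of 3 mice; each vertical axis starts at 0. Timm9, Timm10, Tomm5, Tomm40, Tomm70a and Timm23 show treated libraries below all control libraries in both genotypes, and Timm8b, Timm17b and Tomm22 show overlapping ones.

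The start sites of the members were searched for short motifs with the responses already known. Windows from 250 bases before to 50 bases after the start of transcription, from RefSeq on GRCm38.p6, were at hand for 21 of the 24 members, with none used for Timm21, Tomm40l and Tomm7. The E-box CACGTG, which reads the same on both strands and is a known binding motif of Myc with Max, occurred in 4 of 21 (19.0%), against 8.09% of the 27025 genes with a window and 11.4% of the 10444 such genes tested in T/F. The 4 were Timm9, Timm10, Timm8a1 and Tomm20l. The windows of the other small TIM chaperones, Timm13 and Timm8b, did not hold it. Among the other import genes described further on, 3 of 33 windows held it, those of Chchd3, Hspd1 and Mtx3, and the window of Chchd4 did not. The E-boxes, each in capitals with 12 bases on either side and written 5′ to 3′ on the strand of the gene, were as follows.
Timm9, chr12:71136716-71136745, minus strand: cctacattttccCACGTGgtaacgaatctg
Timm9, chr12:71136659-71136688, minus strand: catcactgccccCACGTGttctcagctttc
Timm10, chr2:84827037-84827066, plus strand: ccggaagtgaccCACGTGcttcttatttcg
Timm8a1, chrX:134541889-134541918, minus strand: ccttcagtggacCACGTGggatgaagcaac
Timm8a1, chrX:134541629-134541658, minus strand: ccgtcacccagaCACGTGaaggtcggcaag
Tomm20l, chr12:71111391-71111420, plus strand: ccggggtttgctCACGTGtggctggcccgt

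Timm9 and Timm8a1 thus held 2 E-boxes each, and those of Timm9 began at positions -58 and -1 from the start. No H3K27ac or factor binding was analysed here, and a match of letters is a description of the sequence, not of a bound site. Tomm5, which changed by about as much as Timm8a1, held none of the motifs searched in its window. The 150 bases before the start of Timm9 and Tomm5 are set side by side for that reason, with the E-box in capitals.
Timm9, chr12:71136676-71136825, minus strand: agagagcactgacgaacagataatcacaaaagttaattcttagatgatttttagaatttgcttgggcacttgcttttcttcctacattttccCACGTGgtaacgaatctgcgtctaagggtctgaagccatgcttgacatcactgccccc
Tomm5, chr4:45108114-45108263, minus strand: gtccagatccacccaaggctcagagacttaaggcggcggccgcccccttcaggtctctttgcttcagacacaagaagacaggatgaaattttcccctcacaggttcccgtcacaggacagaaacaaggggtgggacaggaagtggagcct

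The other motifs were searched on both strands in the same windows, and no match overlapped that of another motif. The ETS motif CCGGAAGT occurred in 6 of 21 members (28.6%), Timm10, Timm10b, Timm23, Timm29, Timmdc1 and Tomm70a, against 4.31% of all genes with a window and 8.85% of those tested. CCAAT, the motif of NF-Y, occurred in 7 of 21 (33.3%) against 41.1% of all and 43.2% of tested genes, with 5 matches in the window of Tomm40. GCATGCGC, a part of the motif of NRF1, a regulator of nuclear genes for mitochondrial proteins, occurred in Timm13 alone (4.76%, against 3.05% and 5.76%). Genes with an ETS match included both called members such as Timm10 and Tomm70a and members that were not called in either genotype, Timmdc1 and Timm10b.

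**Figure D3:**
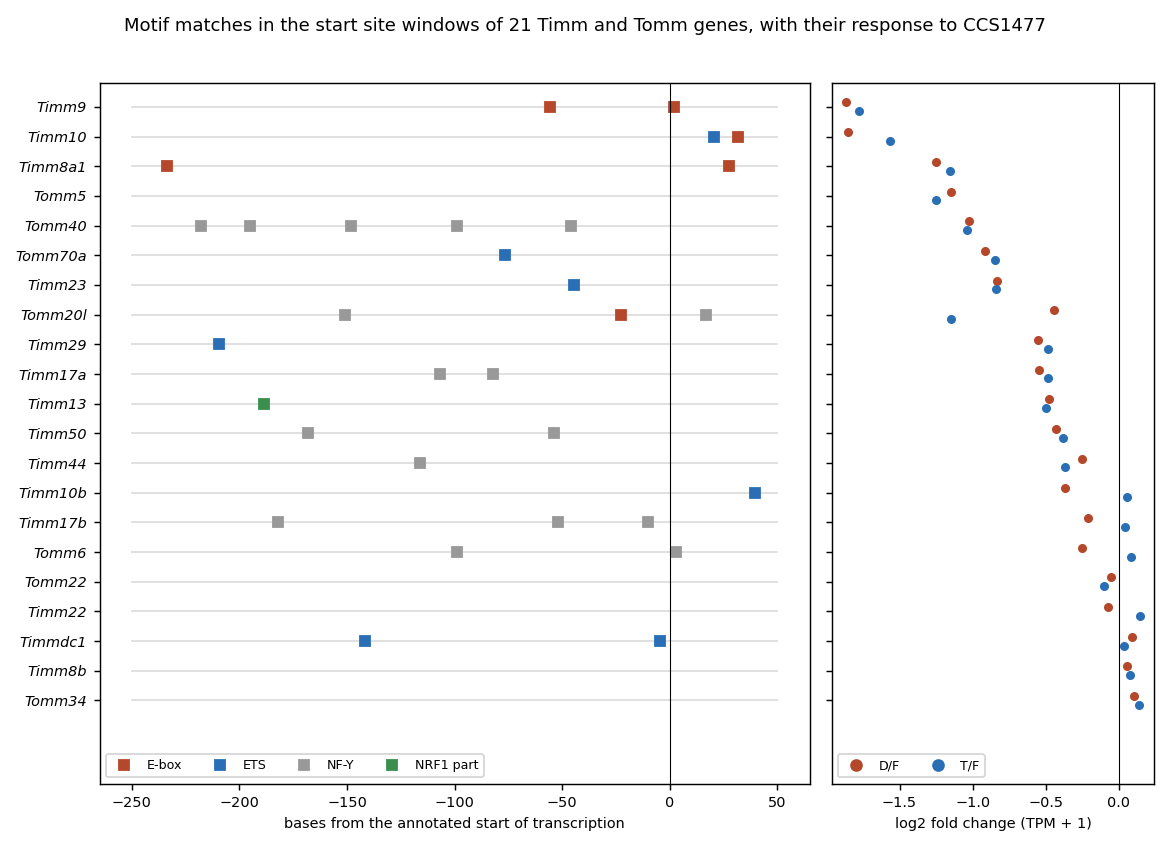
Positions of the E-box, ETS, NF-Y and partial NRF1 motifs from 250 bases before to 50 bases after the annotated start in 21 members (left), ordered by mean response, beside their log2 fold changes of TPM + 1 in D/F and T/F (right). E-boxes lie in the windows of Timm9, Timm10 and Timm8a1, the 3 uppermost genes, and of Tomm20l, while the 6 ETS genes range from Timm10 (-1.85 and -1.56) to Timmdc1 (0.090 and 0.036).

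The TOM complex split into subunits that were lowered and subunits that stayed near their control level. Tomm40 forms the pore of the outer membrane. It was at 128, 89.9 and 165 TPM in D/F DMSO and 69.2, 39.7 and 80.2 TPM in D/F CCS1477, and at 154, 142 and 153 TPM and 74.7, 74.1 and 68.3 TPM in T/F. Treated libraries lay below all controls in each genotype, with D/F replicate 2 the lowest of both D/F groups. Tomm40 fell by 1.04 ± 0.070 on the log2 scale in T/F (limma adjusted p = 0.0005), and its D/F change of -1.02 ± 0.34 had an adjusted p of 0.098 without and 0.0066 with the mouse as a block.

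Tomm5, a small subunit bound to the pore, was at 138, 94.0 and 177 TPM in D/F DMSO and 62.8, 45.2 and 72.9 TPM in D/F CCS1477, and at 172, 157 and 158 TPM and 62.4, 72.5 and 68.1 TPM in T/F. The groups were again apart. Tomm5 fell by 1.25 ± 0.082 on the log2 scale in T/F (limma adjusted p = 0.0004), to 41.7% of the DMSO mean, and its D/F change of -1.14 ± 0.29 had an adjusted p of 0.053 without and 0.0053 with the mouse as a block.

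Tomm70a, the receptor that takes carrier precursors from cytosolic chaperones, was at 106, 84.5 and 119 TPM in D/F DMSO and 52.7, 47.0 and 62.7 TPM in D/F CCS1477, and at 111, 104 and 105 TPM and 60.7, 58.9 and 57.3 TPM in T/F. No treated library reached a control library. It fell by 0.92 ± 0.20 on the log2 scale in D/F (limma adjusted p = 0.035) and fell by 0.85 ± 0.062 in T/F (adjusted p = 0.0005), the only TOM gene that passed in both genotypes without the block. The D/F call was lost when each library was rescaled to its median gene (-0.96).

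Tomm22, Tomm6 and Tomm7, which take part in assembling the complex, were not called in either genotype or by the paired fit. Tomm22 had means of 155 ± 51 TPM with DMSO and 148 ± 38 TPM with CCS1477 in D/F, and 167 ± 12 and 155 ± 4.3 TPM in T/F. Tomm6 had means of 272 ± 77 TPM (DMSO) and 233 ± 82 TPM (CCS1477) in D/F cells, and 239 ± 9.4 and 254 ± 4.8 TPM in T/F cells. Tomm7 had 70.0 ± 9.4 and 66.9 ± 15 TPM in D/F cells and 70.9 ± 7.1 and 76.2 ± 4.3 TPM in T/F cells. Within a library, Tomm40 over Tomm22 therefore went from 0.829 ± 0.040 to 0.420 ± 0.047 in D/F and from 0.903 ± 0.077 to 0.466 ± 0.012 in T/F, and Tomm5 over Tomm6 from 0.502 ± 0.057 to 0.270 ± 0.054 and from 0.678 ± 0.017 to 0.267 ± 0.018. Each of these ratios was lower in 6 of 6 mice with no overlap of the groups (exact permutation p = 0.1 in each genotype).

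**Figure D4:**
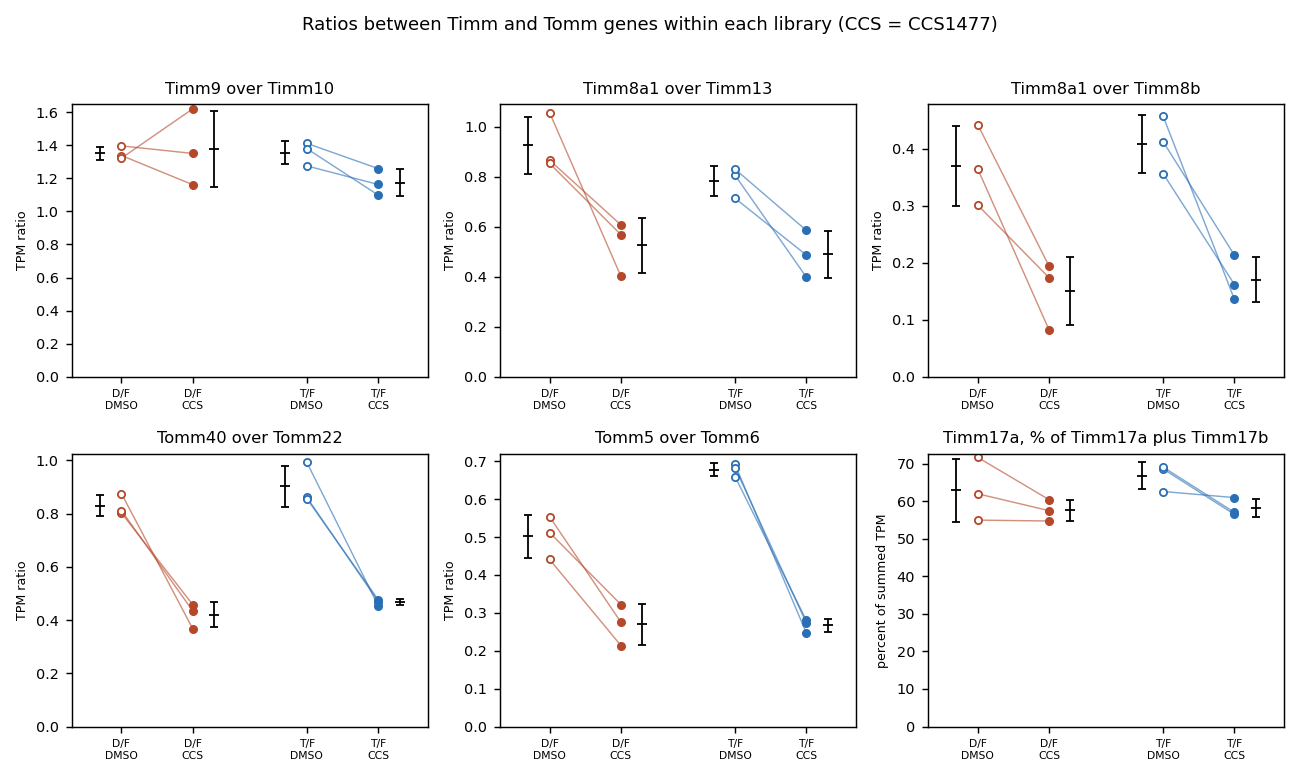
Ratios of TPM between members within each library, with DMSO as open and CCS1477 as filled circles, lines joining the libraries of a mouse and black marks for the mean and SD of 3 mice. Tomm40 over Tomm22 drops from between 0.802 and 0.992 to between 0.367 and 0.476. Timm9 over Timm10 lies between 1.10 and 1.62 over all libraries. In T/F it goes from between 1.27 and 1.41 with DMSO to between 1.10 and 1.26 with CCS1477, and in D/F the groups overlap.

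Tomm40l and Tomm20l had the lowest levels of the TOM genes, with DMSO medians of 22.5 and 1.49 TPM. Tomm40l, a paralogue of the pore subunit, was at 17.5, 22.1 and 22.1 TPM in D/F DMSO and 12.9, 14.4 and 16.0 TPM in D/F CCS1477, and at 29.3, 22.8 and 24.6 TPM and 18.8, 20.6 and 24.8 TPM in T/F. The groups overlapped only in T/F. The fitted log2 change was -0.48 ± 0.17 in D/F (limma adjusted p = 0.113, and 0.021 with the mouse as a block) and -0.25 ± 0.14 in T/F (adjusted p = 0.194). As a share of Tomm40 plus Tomm40l it went from 14.5% ± 4.5 to 19.7% ± 6.1 in D/F (exact permutation p = 0.3) and from 14.5% ± 1.2 to 22.8% ± 3.4 in T/F (exact permutation p = 0.1), higher in 6 of 6 mice.

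Tomm20l was listed at 0, 2.23 and 1.28 TPM in D/F DMSO, 0.194, 1.13 and 0.164 TPM in D/F CCS1477, 2.70, 1.08 and 1.71 TPM in T/F DMSO and 0.727, 0.105 and 0 TPM in T/F CCS1477. The T/F groups were apart and the D/F groups overlapped. Its change of -1.15 ± 0.29 in T/F passed the test (limma adjusted p = 0.022) and that of -0.44 ± 0.47 in D/F did not (adjusted p = 0.576). That call was lost without replicate 2 (-1.27), without replicate 3 (-1.01) and in the shared fit of 4 groups. With a pseudocount of 0.1 TPM in place of 1 TPM the T/F log2 change was -2.82. Tomm20l shares 49 bases with Timm9, which lies on the opposite strand, and the strand setting of the quantification is not given in the sources used here.

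Of the 6 TIM23 genes, 5 were called lower in T/F (background 17.6%), Timm17b being the exception. Timm23, its channel, was at 189, 157 and 229 TPM in D/F DMSO and 122, 86.9 and 112 TPM in D/F CCS1477, and at 223, 207 and 188 TPM and 127, 121 and 97.9 TPM in T/F. The groups did not overlap, and in both genotypes the treated mean was 55.9% of the control mean. Timm23 fell by 0.84 ± 0.12 on the log2 scale in T/F (limma adjusted p = 0.0035), and the D/F change of -0.83 ± 0.21 had an adjusted p of 0.054 without and 0.011 with the mouse blocked. Without replicate 2 the T/F call was lost (-0.87).

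Timm17a and Timm17b are alternative partners of Timm23 in the translocase. Timm17a, a short-lived protein known from stress responses, was at 63.0, 43.6 and 84.6 TPM in D/F DMSO and 44.4, 29.2 and 56.8 TPM in D/F CCS1477, and at 72.1, 71.3 and 61.0 TPM and 48.8, 47.4 and 48.9 TPM in T/F. The D/F groups overlapped although each mouse was lower with CCS1477, and the T/F groups were apart. The fitted log2 change was -0.54 ± 0.33 in D/F (limma adjusted p = 0.320, and 0.014 with the mouse as a block) and -0.48 ± 0.083 in T/F (adjusted p = 0.0060). The T/F call was lost without replicate 1 (-0.45), without replicate 2 (-0.43) and in the shared fit of 4 groups.

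Timm17b was at 38.7, 35.8 and 33.5 TPM in D/F DMSO and 32.8, 24.1 and 37.3 TPM in D/F CCS1477, and at 33.0, 31.9 and 36.5 TPM and 37.6, 35.8 and 31.3 TPM in T/F. The groups overlapped in both genotypes. The fitted log2 change was -0.21 ± 0.20 in D/F (limma adjusted p = 0.519) and 0.043 ± 0.095 in T/F (adjusted p = 0.742), and the T/F value was -0.033 when each library was rescaled to its median gene. Timm17a made up 62.9% ± 8.4 of the pair with DMSO and 57.5% ± 2.8 with CCS1477 in D/F (exact permutation p = 0.4), and 66.7% ± 3.6 and 58.1% ± 2.4 in T/F (exact permutation p = 0.1), lower in 6 of 6 mice.

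The remaining TIM23 genes showed smaller changes. Timm50, the receptor that takes presequences from TOM, Timm44, which tethers the import motor to the channel, and Timm21, which links TIM23 to TOM and to respiratory complexes, had T/F means of 76.5%, 77.3% and 75.7% of DMSO. Their limma adjusted p in T/F were 0.0097, 0.0049 and 0.0096. When a mouse was left out, Timm21 lost its call without any of the 3 replicates (adjusted p up to 0.068), Timm44 without replicate 1 or 2 (up to 0.065) and Timm50 without replicate 1 or 3 (up to 0.099), and the shared fit of 4 groups did not call Timm50. In D/F the means were 73.9%, 83.6% and 78.2% of DMSO and no adjusted p was under 0.05 without the block, while Timm50 alone passed with it (0.022).

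In the TIM22 carrier translocase only the accessory subunit Timm29 was called. Timm29 was at 37.8, 32.1 and 37.6 TPM in D/F DMSO and 24.9, 21.7 and 25.8 TPM in D/F CCS1477, and at 36.5, 33.4 and 33.7 TPM and 24.6, 24.5 and 24.2 TPM in T/F. The groups were apart, and the treated T/F libraries lay close together. Timm29 fell by 0.48 ± 0.063 on the log2 scale in T/F (limma adjusted p = 0.0024), and the D/F change of -0.55 ± 0.15 had an adjusted p of 0.065 without and 0.013 with the mouse as a block. Timm22, the channel, had means of 14.7 ± 0.75 and 13.9 ± 0.96 TPM in D/F and 14.6 ± 0.86 and 16.3 ± 1.2 TPM in T/F. Timm10b, the small TIM docked on that channel, had 63.7 ± 12 and 49.8 ± 13 TPM in D/F and 64.1 ± 8.9 and 66.6 ± 6.1 TPM in T/F.

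Timmdc1, an assembly factor of respiratory complex I, and Tomm34, a cytosolic co-chaperone, are not part of a translocase and were not called. Timmdc1 was at 29.2 ± 2.3 and 31.2 ± 4.0 TPM in D/F and 31.1 ± 2.5 and 31.9 ± 1.3 TPM in T/F. Tomm34 was at 60.5 ± 2.7 and 65.4 ± 6.4 TPM in D/F and 60.6 ± 3.3 and 66.7 ± 2.5 TPM in T/F, with limma adjusted p of 0.672 and 0.166.

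Summed over the 24 members, TPM went from 1830 ± 351 with DMSO to 1315 ± 250 with CCS1477 in D/F (71.8%, exact permutation p = 0.2) and from 1911 ± 74 to 1437 ± 31 in T/F (75.2%, exact permutation p = 0.1), lower in 6 of 6 mice. By complex, the treated mean was 62.3% of the control mean in D/F and 63.8% in T/F for the small TIM chaperones, 68.6% and 69.1% for TIM23, 72.2% and 76.5% for TOM, and 76.9% and 94.7% for TIM22. The TOM sum does not include the presequence receptor Tomm20, which was not analysed here. D/F replicate 2 had the lowest member sum of each D/F group, 1465 TPM with DMSO and 1032 TPM with CCS1477.

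The response of the members was not shown to differ between the genotypes. In limma over all 12 libraries 0 of 24 members were called for the difference of responses (background 0%), 0 of 24 had an unadjusted p under 0.05, and 659 of 15583 genes did. The difference, T/F minus D/F, ranged from -0.71 for Tomm20l to 0.43 for Timm10b on the log2 scale, with a median half-width of the 95% interval of 0.543. For Timm9 it was 0.086 ± 0.58 (95% interval), for Timm10 0.29 ± 0.58 and for Tomm40 -0.015 ± 0.82. With each mouse as a block 0 of 24 members were called again (background 0%), the median half-width was 0.278, and those of Timm9, Timm10 and Tomm40 were 0.22, 0.42 and 0.28. Unadjusted limma p-values under 0.05 were found in that fit for 2293 genes, Timm10b (adjusted p = 0.241) and Tomm6 (adjusted p = 0.265) among them. Under DMSO, T/F and D/F were compared with the same control libraries that enter the responses, and 0 of 24 members were called by limma (background 0.0328%, 5 genes), 0 of 24 at an unadjusted p under 0.05 beside 939 genes, with the lowest p for Tomm40l (limma unadjusted p = 0.10, T/F higher by 0.30 ± 0.38, 95% interval).

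Other genes of the import pathway were taken from a list, of which 33 were in the table. It covered the presequence motor, processing peptidases, outer membrane assembly, inner membrane insertion and MICOS, and the oxidative relay. It also held the matrix chaperonin, grouped with Dnaja3 and Trap1. In T/F 12 of 33 were called lower (background 17.6%) and 4 higher (background 25.8%). In D/F 1 was called lower (background 6.51%) and 0 higher (background 5.14%). At an unadjusted limma p under 0.05, 1 was higher in D/F, Mtch1, and the share of all genes at that limit is not given here. In the paired fit the D/F counts were 9 lower (background 18%) and 1 higher (background 21.4%), adding Dnaja3, Dnajc15, Dnlz, Gfer, Hspa9, Hspd1, Hspe1 and Mtx3 as lower and Mtch1 as higher. The paired T/F counts were 12 lower (background 22.9%) and 5 higher (background 31.2%), Chchd6, a MICOS subunit, being added. Leaving out a mouse gave 0 called lower in D/F without replicate 1 or 3, when no gene of the table was called. Without replicate 2 it gave 3, beside 3739 of 15191 genes called in either direction. In T/F it gave 6 without replicate 1 or 2, beside 3473 of 15254 and 3192 of 15253 genes. Without T/F replicate 3 it gave 8, beside 5122 of 15189 genes. The list had a median log2 fold change of -0.13 for D/F and -0.11 for T/F.

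Chchd4 was the only partner called lower in both genotypes by the unpaired test. It encodes the oxidoreductase that traps and folds small TIM proteins in the intermembrane space. Chchd4 was at 60.5, 59.0 and 76.4 TPM in D/F DMSO and 13.9, 12.5 and 17.5 TPM in D/F CCS1477, and at 78.5, 70.4 and 82.1 TPM and 19.6, 19.3 and 21.0 TPM in T/F. Treated libraries were far below controls in every mouse. It fell by 2.09 ± 0.19 on the log2 scale in D/F (limma adjusted p = 0.0051) and fell by 1.89 ± 0.081 in T/F (adjusted p = 0.0003). Of the rest of the relay, Gfer, the sulfhydryl oxidase that recharges Chchd4, had 65.6% of its DMSO mean in D/F (adjusted p = 0.083, and 0.012 with the mouse as a block) and fell to 74.3% in T/F (adjusted p = 0.0028), and Aifm1, which anchors Chchd4, had 91.4% and 98.0% (adjusted p = 0.722 and 0.854).

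The genes named from here on in the partner list were chosen after their values were seen. Hspa9, the mitochondrial Hsp70 that pulls precursors into the matrix, was at 333, 202 and 371 TPM in D/F DMSO and 161, 78.1 and 205 TPM in D/F CCS1477, and at 353, 341 and 334 TPM and 177, 182 and 176 TPM in T/F. The D/F groups overlapped by 1 library and the T/F groups did not overlap. Hspa9 fell by 0.94 ± 0.058 on the log2 scale in T/F (limma adjusted p = 0.0004), and the D/F change of -1.09 ± 0.41 had an adjusted p of 0.134 without and 0.0089 with the mouse as a block. Hspd1 and Hspe1, the chaperonin that folds imported proteins, had T/F log2 changes of -0.69 ± 0.092 and -0.62 ± 0.068, both called lower (adjusted p = 0.0026 and 0.0014). Their D/F changes of -0.79 ± 0.54 and -0.94 ± 0.40 had limma adjusted p of 0.375 and 0.173 without the block, and 0.019 and 0.0059 with it.

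Mtch1 ran the other way. It encodes a relative of Mtch2, the insertase that places proteins in the outer membrane without the TOM pore, and it was at 92.2, 112 and 94.1 TPM in D/F DMSO and 136, 137 and 133 TPM in D/F CCS1477, and at 103, 103 and 111 TPM and 140, 144 and 148 TPM in T/F. All treated libraries were above all controls. Mtch1 rose by 0.45 ± 0.063 on the log2 scale in T/F (limma adjusted p = 0.0031), and the D/F change of 0.44 ± 0.15 had an adjusted p of 0.10 without and 0.032 with the mouse as a block. Immp1l, a subunit of the inner membrane peptidase, rose by 0.57 ± 0.062 in T/F (adjusted p = 0.0014), and Romo1 and Apool, a MICOS subunit, were the other partners that rose there.

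**Figure D5:**
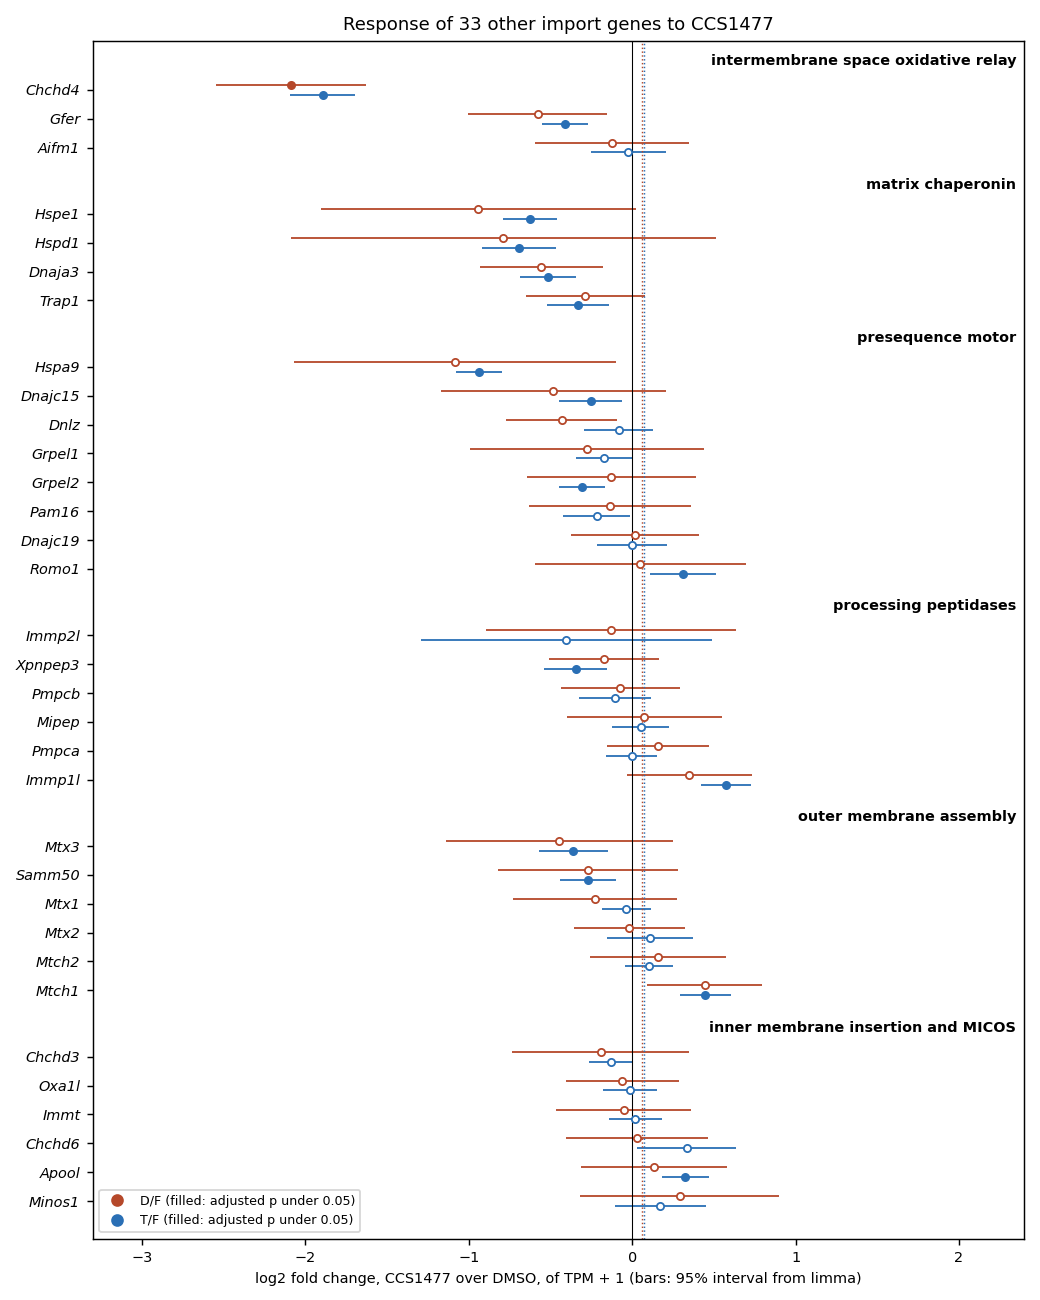
Log2 fold change of TPM + 1 with CCS1477 over DMSO for 33 other import genes, grouped by function, in D/F (red) and T/F (blue), with 95% intervals from limma, filled points at an adjusted p under 0.05 and dotted lines at the median of all genes tested. Chchd4 (-2.09 and -1.89) lies apart from all others. The 4 genes in the group labelled matrix chaperonin, Hspd1, Hspe1, Dnaja3 and Trap1, all have filled T/F points to the left of 0. Mtch1 and Immp1l have filled T/F points to the right, and all intervals and calls are from the unpaired fit.

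Marker levels of several cell types differed between treatments, between mice or both. The 8 blast and progenitor markers summed to 3626 to 10021 TPM in D/F DMSO and 803 to 4277 TPM in D/F CCS1477, and to 4154 to 6379 TPM and 1666 to 3004 TPM in T/F, with 6 of 8 called lower by limma in T/F (background 17.6%) and 0 of 8 in D/F (background 6.51%). The 8 mature neutrophil markers summed to 2830 to 10017 TPM and 1713 to 9778 TPM in D/F, and to 2540 to 7604 TPM and 2683 to 7270 TPM in T/F, with 1 of 8 called lower in each genotype (the same backgrounds hold). That sum hides a split list. Camp, Retnlg, Mmp8 and Lcn2 were lower with CCS1477 in every mouse. Ltf, Ngp, S100a8 and S100a9 were higher in some mice and lower in others. The 5 dendritic cell and macrophage markers summed to 479 to 2175 TPM and 373 to 1171 TPM in D/F, and to 1211 to 3424 TPM and 806 to 2434 TPM in T/F, with 2 of 5 called lower in each. The part of these cell types in the results above was not tested, and in bulk RNA fewer cells that express a gene cannot be told apart from less of its RNA per cell.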

How the data were processed

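RNA-seq data were available for 12 libraries of c-Kit-enriched spleen cells from 3 D/F and 3 T/F mice. The authors deposited gene-level TPM, made with kallisto on mm10 per the submitters' processing notes, and the study's methods name AltAnalyze. Labels name both ribosomal RNA depletion and a stranded mRNA kit for paired 150 bp reads. The lowest of the genes' highest values was 2.00 TPM, so genes with low values are left out of the table used here. Whether Tomm20 and Timm8a2 were absent for that reason was not tested. Kallisto divides reads shared by similar transcripts, so paralogues and pseudogene copies can exchange signal, and TPM is relative, so a change of total RNA is not seen.

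Symbols and positions came from GENCODE vM21 (GRCm38). Genes averaging 1 TPM or more in a compared group were tested as log2(TPM + 1), a pseudocount of 1 TPM, with limma 3.58.1 in R 4.3.3 (eBayes without trend, two-sided, Benjamini-Hochberg over all genes tested) within each genotype, and all 24 members passed. The difference of responses used the 4 groups together. SE values are from the fits without the mouse as a block. Single values had an exact two-sided permutation test of 3 against 3 libraries (scipy 1.17.1, smallest p 0.1). The labels give the same mouse number to the DMSO and CCS1477 library of a replicate. After removal of group means libraries of the same mouse correlated at 0.527, 0.655 and 0.531 (D/F) and at 0.367, 0.340 and 0.478 (T/F), with at most 0.132 between different mice, so the numbers pair the samples and the paired fit is given where it changes a call.

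On simulated data with 200 changed genes, the D/F fit recovered 0% of log2 changes of 0.5 and 36.0% of changes of 1, the T/F fit 40.0% and 90.5%, and the test of the difference 0% and 54.5%. The members, lists and tests were chosen with earlier results of these data known. Values in each library are given for the 10 members with the largest mean change and for paralogue pairs, for Timm13 as partner of Timm8a1, and for partners called in both genotypes. Alternatives were a pseudocount of 0.1 TPM, a filter at 5 TPM or none, a block for the mouse, 1 fit of all 4 groups, a trend in eBayes, quantile normalization, scaling to the median gene, and leaving out each mouse. Promoter windows came from RefSeq (GRCm38.p6). No comparison columns of the authors were used.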

Additional observations from a re-analysis of the deposited data

Results flagged for a closer look

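Tomm6, a small subunit of the TOM complex and the member with the highest level under DMSO, was the only import gene whose libraries moved in opposite directions in the genotypes in every mouse. In D/F it was lower with CCS1477 in 3 of 3 mice, from 314, 184 and 319 TPM to 294, 140 and 265 TPM. In T/F it was higher in 3 of 3 mice, from 249, 238 and 231 TPM to 253, 259 and 249 TPM. The difference of the log2 responses, T/F minus D/F, was 0.33 ± 0.86 (95% interval) and did not pass the test (limma unadjusted p = 0.409). With the mouse as a block the interval was 0.33 ± 0.26 (limma unadjusted p = 0.019, adjusted p = 0.265). Tomm6 was not called in T/F as reported, and quantile normalization called it higher there (0.19, limma adjusted p = 0.041). The doses differed between the genotypes, so genotype and dose cannot be told apart.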

How the results depend on the processing

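Of 283 alternative values for the named members, 240 kept their direction and side of the threshold, 14 lost the call, 25 gained it and 4 changed sign. The number of members called lower in D/F, 3 as reported, was 6 with a filter at 5 TPM, 6 with a trend in eBayes, 9 in the shared fit of 4 groups, 12 with the mouse as a block and 0 to 8 when a mouse was left out (0 without replicate 1 or 3, 8 without replicate 2). All genes called in D/F in either direction rose as well, from 1805 of 15501 as reported to 2091 of 12237 with that filter. They were 2167 with the trend, 4940 in the shared fit, 6098 with the block, 0 without replicate 1 or 3 and 3739 without replicate 2. Members lowered more than 2-fold in D/F, 2 as reported, were 5 with the block, 5 in the shared fit and 0 to 3 without a mouse. The share of all genes above 2-fold under these settings is not given here. In T/F, where 14 were called lower, leaving out a mouse gave 8 to 11 and the shared fit gave 10. All genes called in T/F in either direction, 6620 as reported, were 3192 to 5122 without a mouse and 3713 in the shared fit. Quantile normalization called 1 member, Tomm6, higher in T/F, and rescaling to the median gene moved the members' median log2 fold change there to -0.46. Partners called lower in D/F, 1 as reported, were 2 with the filter at 5 TPM, 2 with the trend, 9 with the block, 6 in the shared fit and 0 to 3 without a mouse, and in T/F, 12 as reported, 5 in the shared fit and 6 to 8 without a mouse. Timm17b in T/F was -0.033 when rescaled and ranged from -0.027 to 0.17 when a mouse was left out, and Timm8b in D/F from -0.012 to 0.091. The calls that the paired fit changed are named with each gene in the report. No scaling moved the median of all genes by over 0.1 on the log2 scale. The cause of these changes was not tested. With 3 mice a group and TPM without read numbers, D/F members that were not called may still have changed. The simulated recovery of 0% of D/F log2 changes of 0.5 was for 200 changed genes and does not measure how many.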
